A study of Mus musculus with 15 samples.

Results

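The genes described here shape the endoplasmic reticulum (ER) or mark parts of it for ER-phagy, its removal by autophagy. They are Retreg1, Retreg2, Retreg3, Rtn3, Reep5, Atl2, Atl3, Ckap4 and Ccpg1. Every array probe set that names 1 of them and no other gene was taken, which gave 22 probe sets of 8 genes among 18193 genes with such a probe set in the whole table. No such probe set was found for Atl2, which is not analysed here. The group was chosen by measured values, but its rule names no comparison. Retreg3 stood among the largest decreases in S724A IRE1a cells against EGFP cells in an earlier reading of these data, and that comparison is taken here as the one used. The 48-hour values of Retreg3 are therefore a description with no test.

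Reticulons and Reep proteins insert hairpins into one leaflet of the ER membrane and curve it into tubules, atlastins fuse tubules into a network, and Ckap4 holds the opposite faces of a sheet apart. ER-phagy receptors sit in the same membrane and bind LC3 and GABARAP proteins on the forming autophagosome, so that a piece of ER is enclosed and degraded. The liver cell carries much rough and smooth ER for secretion and metabolism, and the unfolded protein response, to which IRE1a belongs, enlarges the ER when its folding load rises.

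The study measured total RNA of primary hepatocytes from C57BL/6 mice on Affymetrix Mouse Genome 430 2.0 arrays, with 5 groups of 3 arrays from 3 experiments run independently. In the first arm cells carried adenovirus for 48 hours and received no further treatment: Ad-EGFP as control, Ad-WT for wild-type IRE1a, or Ad-S724A for IRE1a with a serine changed to alanine. In the second arm cells carried a hairpin virus for 72 hours, Ad-shCON as control or Ad-shIRE1a#2 against IRE1a, and all of them then received glucagon for 4 hours. All 15 cultures were thus infected, no group lacked virus, and the arms differ in virus, time and glucagon, so no test joined them. IRE1a is an ER membrane kinase and endoribonuclease that senses unfolded protein, and its gene is Ern1.

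The values are deposited log2 intensities, so a difference of 1 is a doubling. Probe sets differ in their binding, so levels were compared within a probe set and never between genes. All 22 member probe sets reached 4 on the log2 scale in at least 3 of 15 arrays, as did 30046 probe sets of 16294 genes, which were tested together. Of 7 hepatocyte marker genes with a probe set, all 7 stayed between 10.58 and 14.48 in every group mean. Within these, Fgb had means of 11.07, 12.05 and 11.78, Hnf4a of 10.58, 11.32 and 11.11, and Tat of 10.83, 11.30 and 11.61 in EGFP, wild-type and S724A cells. Others were lower with both proteins: Alb at 14.48, 14.3 and 14.22, Cps1 at 11.82, 11.72 and 11.43, and Ttr at 13.88, 13.77 and 13.83. Apoa1 had means of 13.67, 13.82 and 13.66. The mean over 5 macrophage markers was 6.82 in EGFP, 6.88 in wild-type and 6.79 in S724A cells, and 6.64 and 6.76 in control and IRE1a hairpin cells. Of these markers, 2 of 5 reached 6, with Cd68 as high as 12.07, and 2 of 5 endothelial, 1 of 5 stellate, 3 of 4 cholangiocyte and 0 of 4 lymphocyte markers did. Their part in the results was not tested.

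The targeted gene was examined first. The brightest Ern1 probe set, 1437119_at, read 8.89, 8.96 and 9.10 with the control hairpin and 7.60, 7.44 and 7.51 with the IRE1a hairpin. All 3 knockdown arrays were below all 3 controls, a fall of 2.76-fold (log2 difference -1.47 ± 0.19 SE, limma adjusted p = 0.00395, n = 3 arrays a group). The other 4 Ern1 probe sets did not pass: 1421240_at, 1438583_at and 1431886_at differed by -0.58, -0.43 and -0.65 (adjusted p = 0.148, 0.411 and 0.211), and 1450176_at by 0.35 (0.633). The same probe set differed from EGFP by 0.12 ± 0.19 with wild-type IRE1a (adjusted p = 0.79) and by 0.46 ± 0.19 with S724A (adjusted p = 0.183). A probe outside the delivered sequence would not see a virus-borne IRE1a, and the probe positions were not used here, so those values do not check the overexpression labels.

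With either IRE1a protein, 2 of 5 Atl3 probe sets fell, by 1.60-fold to 2.18-fold, and 1 of 2 Ccpg1 probe sets rose, by 1.74-fold to 1.89-fold. Retreg2 fell and 1 of 2 Retreg1 probe sets rose with wild-type IRE1a, 1 of 3 Reep5 probe sets rose with S724A, and Rtn3 and Ckap4 had none past the threshold. The Retreg2, Retreg1 and Reep5 probe sets that passed differed in the same direction with the other protein. No member passed between wild-type and S724A IRE1a. Retreg3 was lower with both. Over the 19 probe sets of the 7 members other than Retreg3, 2 rose and 3 fell with wild-type IRE1a at a Benjamini-Hochberg adjusted p under 0.05, against 3.77% of all tested probe sets that rose and 2.07% that fell. With S724A, 2 rose and 2 fell (3 and 4 with the replicate number as a block, called the replicate block), against 3.13% that rose and 1.75% that fell. The replicate block raised both counts with wild-type IRE1a as well, as given in the closing section. Among all calls 64.5% were rises with wild-type IRE1a and 64.2% with S724A, or 54.4% and 51.4% after quantile normalisation. The remaining 14 and 15 member probe sets passed in neither direction. The median log2 difference over all 19 was 0.18 with wild-type IRE1a and 0.15 with S724A, while the median over all tested probe sets was 0 in both. Both comparisons use the same 3 EGFP arrays and are not independent of each other. In bulk RNA, fewer cells of a type and less RNA per cell cannot be told apart.

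**Figure D1:**
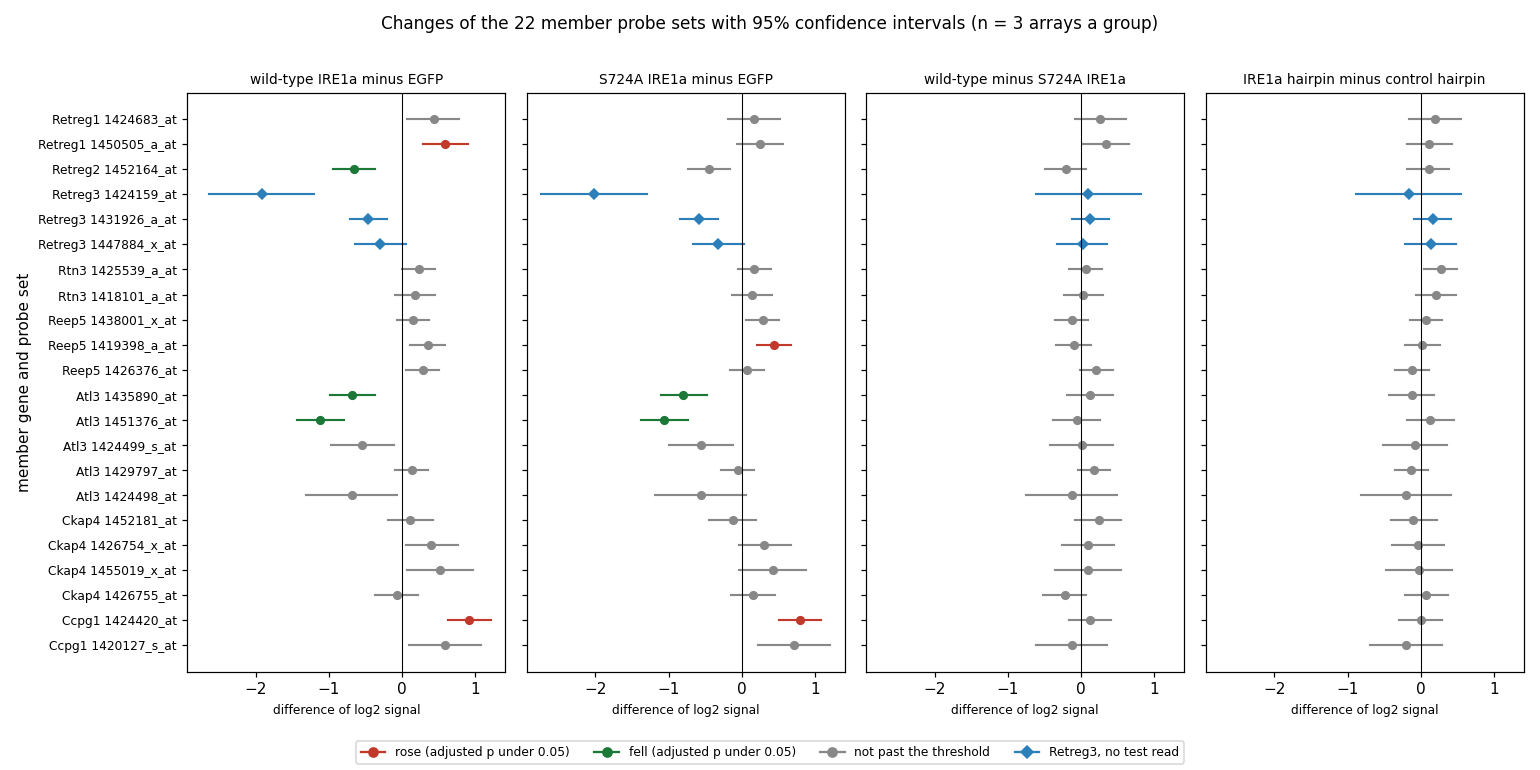
Log2 difference (x axis) of each of the 22 member probe sets (y axis) in 4 comparisons, as points with 95% confidence intervals, n = 3 arrays a group. Red rose, green fell and grey did not pass an adjusted p of 0.05, and blue diamonds are Retreg3, for which no test is read. The 48-hour comparisons with EGFP spread from -2.02 to 0.92, and in the other comparisons all points lie between -0.22 and 0.34.

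Retreg3, also called FAM134C, is a reticulon-homology protein of the Retreg1 family that acts as an ER-phagy receptor. Its brightest probe set, 1424159_at, read 9.07, 7.92 and 8.60 in EGFP cells. It read 5.66, 7.04 and 7.12 with wild-type IRE1a and 6.76, 6.25 and 6.52 with S724A. Each of the 6 IRE1a arrays was below each of the 3 EGFP arrays, and wild-type replicate 1 was the lowest of all 15. The mean was 3.79-fold lower with wild-type IRE1a (-1.92 ± 0.34 SE) and 4.06-fold lower with S724A (-2.02 ± 0.34), n = 3 arrays a group. The EGFP arrays themselves had an SD of 0.58 and the wild-type arrays one of 0.82, against 0.26 with S724A.

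The second Retreg3 probe set, 1431926_a_at, read 7.26, 7.18 and 7.35 with EGFP, 6.98, 6.69 and 6.71 with wild-type IRE1a and 6.81, 6.61 and 6.60 with S724A. Again no IRE1a array reached the EGFP range, but the differences were smaller, -0.47 ± 0.12 and -0.59 ± 0.12. The third, 1447884_x_at, lay between 3.59 and 4.55 in all 15 arrays, around the filter's value of 4, and differed by -0.30 ± 0.16 and -0.32 ± 0.16. Its wild-type arrays were all under the EGFP arrays, while S724A replicate 1, at 4.23, lay inside the EGFP range. The suffix _x_at marks probes that may bind other sequences, and _a_at marks probes shared by transcripts of one gene. The change of 1431926_a_at was less negative than that of the brightest probe set by 1.45 ± 0.39 with wild-type IRE1a and by 1.43 ± 0.39 with S724A, and that of 1447884_x_at by 1.63 ± 0.32 and 1.70 ± 0.32. Averaged over the 3 probe sets, Retreg3 differed from EGFP by -0.90 with wild-type IRE1a and by -0.98 with S724A. This average, and the comparison of 1447884_x_at with the brightest probe set, include a probe set of low signal. Changes of such dim probe sets may be understated, as the processing section describes.

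**Figure D2:**
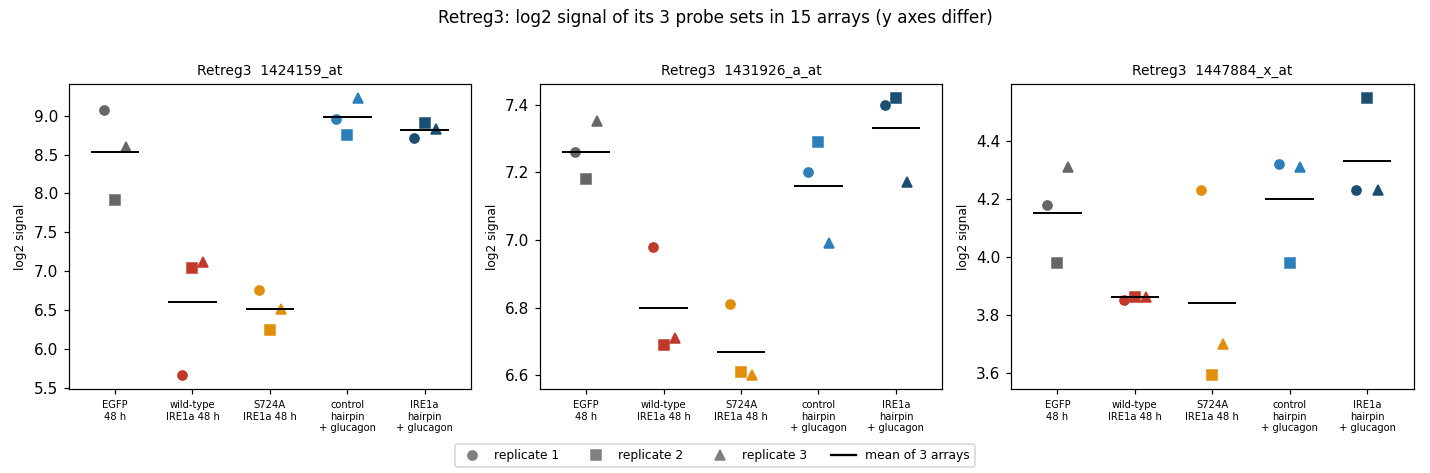
Log2 signal (y axes, which differ) of the 3 Retreg3 probe sets in the 5 groups (x axis), with 1 symbol per array and a black line for the mean of 3 arrays. In 1424159_at and 1431926_a_at the 6 arrays with wild-type or S724A IRE1a lie below all EGFP arrays, and both hairpin groups lie at or near the EGFP level.

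In the hairpin arm Retreg3 1424159_at read 8.96, 8.75 and 9.23 with the control hairpin and 8.71, 8.90 and 8.83 with the IRE1a hairpin. The groups overlapped, with a difference of -0.16 ± 0.34 (95% interval -0.88 to 0.55, limma adjusted p = 0.926). The other Retreg3 probe sets differed by 0.17 ± 0.12 (adjusted p = 0.74) and 0.14 ± 0.16 (adjusted p = 0.863). Between wild-type and S724A IRE1a, the means of 1424159_at were 6.61 and 6.51.

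The 5 tested probe sets whose pattern was closest to Retreg3 1424159_at, by the root mean square difference over 15 arrays after centring each on its own mean, belonged to Ndufa9 (0.40), Stim2 (0.44), Msn (0.47), Hgsnat (0.51) and Dera (0.52, all in log2 units). Ndufa9, a subunit of mitochondrial complex I, had group means of 11.37 with EGFP, 9.50 with wild-type IRE1a, 9.34 with S724A, 11.58 with the control hairpin and 11.64 with the IRE1a hairpin. Stim2, an ER calcium sensor, had means of 9.83, 8.08, 8.0, 9.76 and 9.73 in the same order. Because likeness to Retreg3 chose these genes on the same 15 arrays, the order of their group means is a description of that choice.

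Retreg1, or FAM134B, is the family member best known as a receptor for sheet ER. Its probe set 1450505_a_at read 8.62, 8.60 and 8.80 with EGFP and 9.39, 9.13 and 9.27 with wild-type IRE1a. With S724A it read 8.70, 8.80 and 9.28. The wild-type arrays were all above EGFP and this probe set rose 1.51-fold (0.59 ± 0.14 SE, adjusted p = 0.0257), whereas S724A arrays overlapped EGFP (0.25 ± 0.14, adjusted p = 0.328). Leaving out EGFP replicate 1 or 2 or wild-type replicate 1 or 3 ended the wild-type call, at adjusted p values of 0.0746, 0.102, 0.0846 and 0.0678, as did fitting the 48-hour arm alone (0.054) and quantile normalisation (0.0505). The difference between wild-type and S724A was 0.34, with an interval of 0.03 to 0.65 and an adjusted p of 0.662, so the 2 proteins were not shown to differ. The brighter Retreg1 probe set 1424683_at differed by 0.43 ± 0.17 with wild-type IRE1a (adjusted p = 0.164) and by 0.17 ± 0.17 with S724A (adjusted p = 0.587).

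Retreg2, or FAM134A, has 1 probe set, 1452164_at, at 10.17, 9.99 and 10.08 with EGFP. It read 9.45, 9.26 and 9.57 with wild-type IRE1a and 9.78, 9.49 and 9.64 with S724A. All 6 IRE1a arrays were below all EGFP arrays. It fell 1.58-fold with wild-type IRE1a (-0.66 ± 0.13, adjusted p = 0.00849). With S724A the difference was -0.45 ± 0.13 at an adjusted p of 0.0716, which became 0.0192 in the paired fit with the replicate number as a block. That paired fit called 6.66% of all probe sets as risen and 3.75% as fallen with S724A.

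Rtn3 is a reticulon whose long form is a receptor for tubular ER. Its brighter probe set 1425539_a_at read 11.60, 11.38 and 11.44 with EGFP, 11.74, 11.64 and 11.71 with wild-type IRE1a and 11.72, 11.65 and 11.56 with S724A. The differences of 0.23 ± 0.10 (adjusted p = 0.248) and 0.17 ± 0.10 (adjusted p = 0.356) did not pass. Neither did those of 1418101_a_at, 0.18 ± 0.13 and 0.14 ± 0.13. With the IRE1a hairpin 1425539_a_at read 11.76, 11.50 and 11.60, all above the 11.49, 11.24 and 11.29 of the control hairpin. That difference was 0.28 (95% interval 0.05 to 0.50, adjusted p = 0.509), the highest among the 22 probe sets in that comparison.

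Reep5 is a hairpin protein of ER tubules. Its probe set 1419398_a_at read 10.90, 10.60 and 10.62 with EGFP, 10.96, 10.97 and 11.23 with wild-type IRE1a and 11.20, 11.13 and 11.12 with S724A. Both IRE1a groups were above EGFP in every array, by 0.35 ± 0.11 with wild-type IRE1a (adjusted p = 0.0899) and by 0.44 ± 0.11 with S724A, where it rose (adjusted p = 0.0345, 1.36-fold). The S724A call ended without any 1 of the 3 S724A arrays, EGFP replicate 2 or EGFP replicate 3, at adjusted p values of 0.0841 to 0.154. It also ended within the arm alone (0.0601) and with quantile normalisation (0.0538). The other Reep5 probe sets, 1438001_x_at and 1426376_at, differed from EGFP by 0.07 to 0.29 and passed in neither comparison.

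Atl3 is an atlastin GTPase of ER tubules that also binds GABARAP as an ER-phagy receptor. Its probe set 1451376_at read 9.21, 8.88 and 9.33 with EGFP. It read 7.89, 7.95 and 8.21 with wild-type IRE1a and 7.94, 8.01 and 8.27 with S724A. The 6 IRE1a arrays all lay below EGFP, and this probe set fell 2.18-fold with wild-type IRE1a (-1.12 ± 0.15, adjusted p = 0.000377) and 2.09-fold with S724A (-1.06 ± 0.15, adjusted p = 0.000657).

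The brightest Atl3 probe set, 1435890_at, read 9.01, 8.98 and 9.23 with EGFP, 8.30, 8.15 and 8.74 with wild-type IRE1a and 8.30, 8.15 and 8.39 with S724A. It fell by 0.68 ± 0.15 on the log2 scale with wild-type IRE1a (adjusted p = 0.0121), which missed the threshold when EGFP replicate 3 (0.0615) or wild-type replicate 2 (0.0553) was left out. It fell by 0.80 ± 0.15 with S724A (adjusted p = 0.0048). Wild-type replicate 3, at 8.74, was the array nearest to the EGFP range.

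Of the 3 dimmer Atl3 probe sets none passed in the unpaired fit. The probe set 1424499_s_at, whose suffix marks probes shared with other transcripts, differed by -0.55 ± 0.20 with each protein (adjusted p = 0.145 and 0.135). With the replicate block these adjusted p values became 0.0191 with wild-type IRE1a and 0.0216 with S724A. Values of 1424498_at ranged from 5.19 to 6.75, with differences of -0.69 ± 0.29 (adjusted p = 0.201, or -1.01 at 0.0491 without wild-type replicate 3) and -0.56 ± 0.29 (adjusted p = 0.281). With the replicate block its adjusted p values became 0.0246 and 0.0629. The probe set 1429797_at read 6.33, 6.59 and 6.47 with EGFP and 6.76, 6.48 and 6.53 with wild-type IRE1a, a difference of 0.13 ± 0.10, and -0.05 ± 0.10 with S724A.

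Its change was less negative than that of 1435890_at by 0.80 ± 0.18 with wild-type IRE1a (adjusted p = 0.0571) and by 0.74 ± 0.18 with S724A (adjusted p = 0.0797 and, with the replicate block, 0.0454). Such unequal change passed in 0.829% of the 13752 probe set pairs of 1 gene with wild-type IRE1a and in 0.996% with S724A. Without wild-type replicate 3, the difference with wild-type IRE1a was 1.01 (adjusted p = 0.0113). Which Atl3 transcripts the probe sets read was not tested.

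Ccpg1 is an ER-phagy receptor known from human cells and mouse pancreas as a gene raised by ER stress. Its probe set 1424420_at read 7.22, 7.37 and 7.37 with EGFP. It read 8.25, 8.11 and 8.34 with wild-type IRE1a and 8.05, 8.16 and 8.14 with S724A. All 6 IRE1a arrays were above EGFP, and it rose 1.89-fold with wild-type IRE1a (0.92 ± 0.14, adjusted p = 0.000868) and 1.74-fold with S724A (0.80 ± 0.14, adjusted p = 0.00277).

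Hairpin cells treated with glucagon had a Ccpg1 level as high as that of the IRE1a groups, 8.72, 8.50 and 8.26 with the control hairpin and 8.61, 8.23 and 8.65 with the IRE1a hairpin. The arms were not tested against each other, and within the hairpin arm the groups overlapped and differed by 0 ± 0.14 (interval -0.29 to 0.29, adjusted p = 0.999). The second probe set, 1420127_s_at, read 6.21, 6.15 and 6.00 with EGFP, 6.71, 6.33 and 7.09 with wild-type IRE1a and 6.80, 6.98 and 6.75 with S724A. It too was above EGFP in all 6 arrays, by 0.59 ± 0.23 (adjusted p = 0.164) and 0.72 ± 0.23 (adjusted p = 0.0871 and, with the replicate block, 0.0369).

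Ckap4, or CLIMP-63, is a rod-shaped spacer of ER sheets. Its 4 probe sets lay between 5.76 and 7.23 in all arrays. They differed from EGFP by -0.07 to 0.52 with wild-type IRE1a and by -0.12 to 0.43 with S724A, and none of the 4 passed in the unpaired fit. The highest difference belonged to 1455019_x_at, which read 5.88, 6.01 and 6.17 with EGFP and 6.23, 6.52 and 6.85 with wild-type IRE1a. All 3 wild-type arrays exceeded EGFP, but the difference of 0.52 ± 0.21 had an adjusted p of 0.188.

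**Figure D3:**
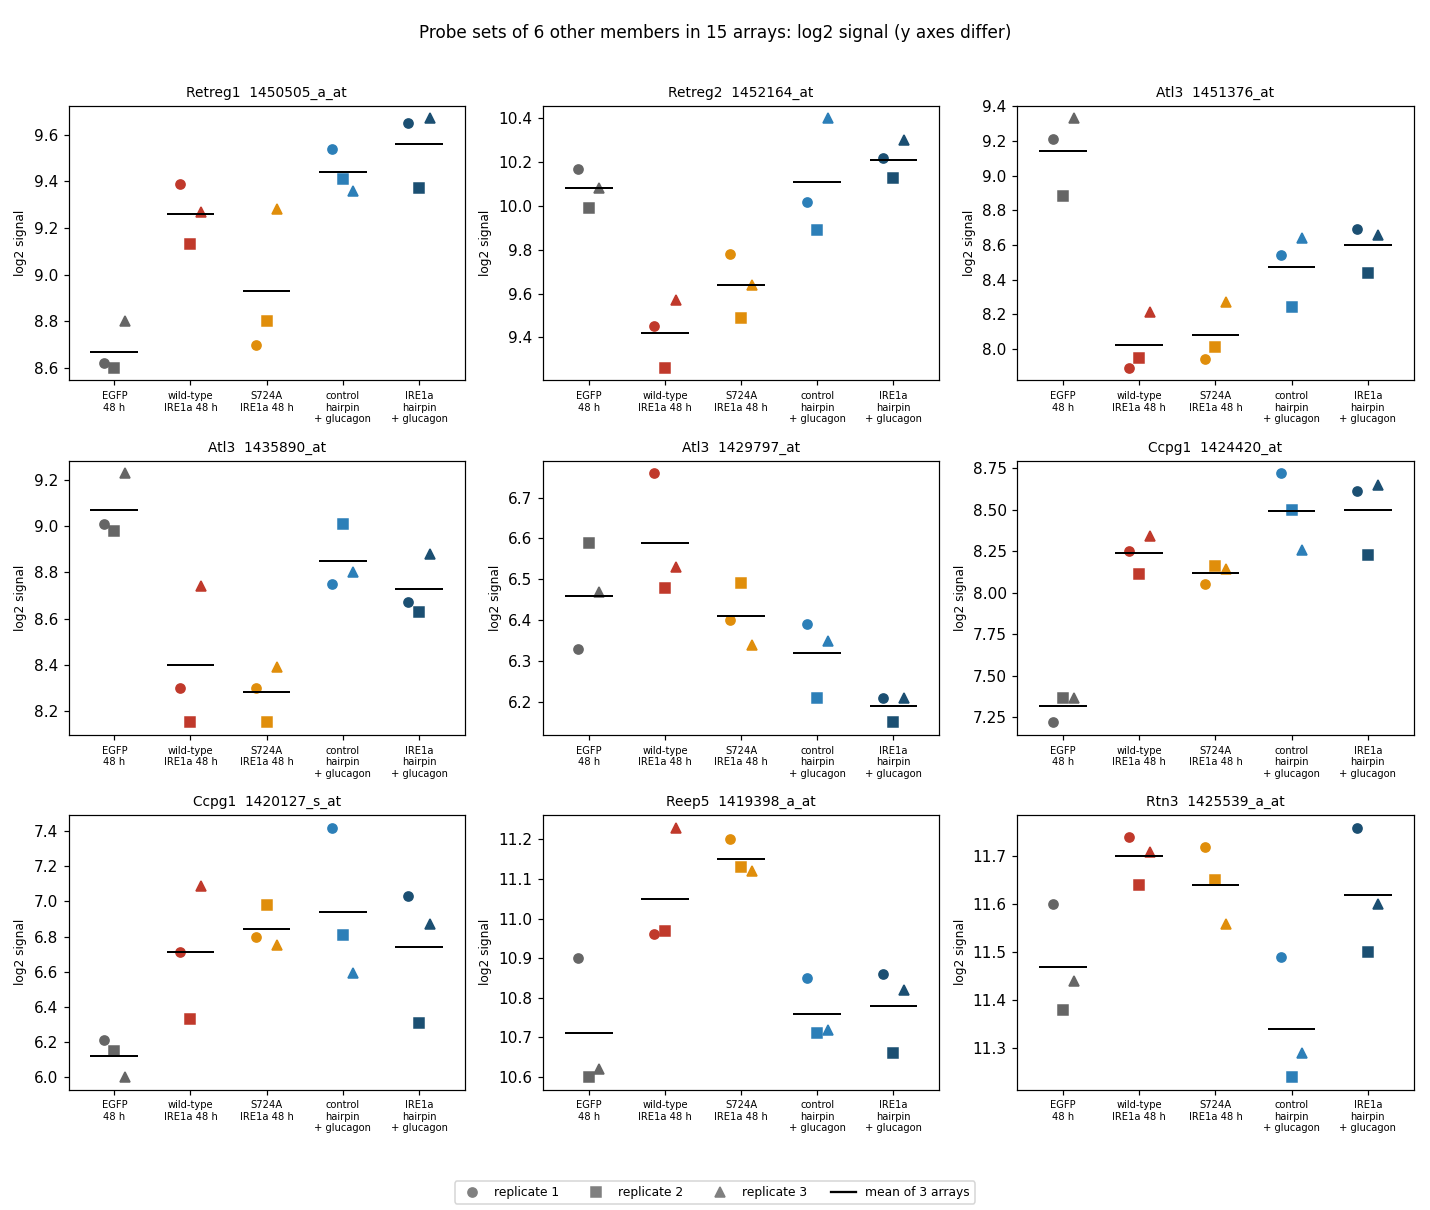
Log2 signal (y axes, which differ) of 9 probe sets of Retreg1, Retreg2, Atl3, Ccpg1, Reep5 and Rtn3 in the 5 groups (x axis), with 1 symbol per array and a black line for the mean of 3 arrays. Atl3 1451376_at and 1435890_at and Retreg2 are lower in the wild-type and S724A IRE1a groups than in EGFP. In the same groups Ccpg1 is higher, and Atl3 1429797_at overlaps EGFP.

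The promoters of the 3 members with the largest differences from EGFP are shown because their products act on one organelle while Retreg3 and Atl3 went opposite to Ccpg1. Each window runs from 250 bases before to 50 bases after the RefSeq start, in assembly GRCm38.p6, 5′ to 3′ on the gene's strand. Capitals mark CCACG on either strand (printed as CGTGG where it lies on the other strand), the core letters of the sites bound by XBP1 and ATF6, factors of the unfolded protein response. Retreg3 lies on the minus strand at chr11:101119792-101120091, Atl3 on the plus strand at chr19:7494188-7494487 and Ccpg1 on the plus strand at chr9:72985254-72985553.
Retreg3: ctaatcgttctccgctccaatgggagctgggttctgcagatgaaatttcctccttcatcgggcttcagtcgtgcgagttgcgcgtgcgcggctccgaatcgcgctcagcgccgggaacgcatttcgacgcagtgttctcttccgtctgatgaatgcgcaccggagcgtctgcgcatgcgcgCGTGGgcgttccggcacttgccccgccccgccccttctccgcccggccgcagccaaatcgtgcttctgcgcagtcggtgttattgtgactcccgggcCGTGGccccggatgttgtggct
Atl3: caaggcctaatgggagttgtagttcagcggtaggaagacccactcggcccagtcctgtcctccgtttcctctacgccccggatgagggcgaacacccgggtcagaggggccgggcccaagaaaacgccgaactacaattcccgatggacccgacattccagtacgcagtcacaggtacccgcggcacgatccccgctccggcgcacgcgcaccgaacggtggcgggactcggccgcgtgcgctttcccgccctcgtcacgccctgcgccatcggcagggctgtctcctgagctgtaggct
Ccpg1: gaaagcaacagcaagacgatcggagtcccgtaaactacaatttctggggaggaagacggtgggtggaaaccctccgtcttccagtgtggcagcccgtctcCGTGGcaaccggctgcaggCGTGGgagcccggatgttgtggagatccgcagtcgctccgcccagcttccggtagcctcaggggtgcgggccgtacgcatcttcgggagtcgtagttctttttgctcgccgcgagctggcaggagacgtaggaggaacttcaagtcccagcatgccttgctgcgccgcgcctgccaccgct
The core was found 2 times in the Retreg3 window, starting at -69 and 29 from the start site, and 2 times in the Ccpg1 window, at -150 and -131. It was not found in the Atl3 window. Over the 11 windows listed for 8 of the 9 members, Atl2 included and Reep5 not shown, 8 windows of 7 genes held it, against 32.8% of 32851 promoter windows of the same length. Several of the 11 windows belong to Retreg1, and promoter base content was not matched. Whether the members hold the core more often was not tested. The longer UPRE, CCACGTCA, was in 0.676% of all windows and the ERSE, which is CCAAT, 9 bases and CCACG, in 0.119%, and neither was in any of the 11. Both hold the core, so the counts overlap. A match is a description of letters and not a binding site.

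The direct comparison of wild-type with S724A IRE1a gave no call for any member. Over the 19 probe sets the differences ran from -0.22 to 0.34, the smallest adjusted p was 0.662, and 1 probe set, Retreg1 1450505_a_at, had an unadjusted p under 0.05. Limma called 0% of all 30046 probe sets as risen and 0% as fallen in this comparison, with 2210 at an unadjusted p under 0.05, and the replicate block called 0 risen and 4 fallen. Confidence intervals of the 19 member differences reached from -0.75 (Atl3 1424498_at, SE 0.29) to 0.65 (Retreg1 1450505_a_at, SE 0.14). Differences of that size were not excluded for these probe sets.

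Lowering Ern1 in cells given glucagon likewise gave no member past the threshold. The 19 differences ran from -0.20 to 0.28 with a smallest adjusted p of 0.509, and 1 probe set, Rtn3 1425539_a_at, had an unadjusted p under 0.05. Of all probe sets 0.03% rose and 0.14% fell, which is 9 and 42, with 2386 at an unadjusted p under 0.05; with the replicate block the counts were 82 and 162. Atl3 1451376_at read 8.54, 8.24 and 8.64 with the control hairpin and 8.69, 8.44 and 8.66 with the IRE1a hairpin. All of these lay below its EGFP values of 9.21, 8.88 and 9.33, whereas the other Atl3 probe sets overlapped their EGFP ranges. The arms were not tested against each other. Retreg2 read 10.02, 9.89 and 10.40 against 10.22, 10.13 and 10.30. For Atl3 1451376_at and Retreg2 the hairpin groups overlapped, with differences of 0.13 ± 0.15 (interval -0.19 to 0.45) and 0.11 ± 0.13 (interval -0.18 to 0.39).

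Other genes of ER shaping and ER-phagy were taken from lists and read by the brightest probe set of each gene. Read that way, with wild-type IRE1a 4.5% of the tested genes rose and 2.25% fell, and with S724A 3.47% rose and 1.88% fell. Of 25 further ER-shaping genes, 23 were tested, of which 2 rose and 2 fell with wild-type IRE1a and 3 rose and 0 fell with S724A (6 and 1 with the replicate block). The median difference was 0.07 and 0.08, against 0 and -0.01 over all genes. Atl1, another atlastin, read 6.10, 6.43 and 5.91 with EGFP, 7.25, 7.12 and 7.28 with wild-type IRE1a and 7.24, 7.36 and 6.99 with S724A. It rose by 1.07 ± 0.22 (adjusted p = 0.00905) and 1.05 ± 0.22 (adjusted p = 0.0122), the direction opposite to the 2 Atl3 probe sets that fell. The S724A call was lost without EGFP replicate 3 (0.0599) or S724A replicate 2 (0.0631). The dimmer Atl1 probe set 1452711_at differed by 0.41 ± 0.13 with wild-type IRE1a (adjusted p = 0.0892) and rose by 0.76 ± 0.13 with S724A (adjusted p = 0.00335).

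Stx18, an ER SNARE, rose by 0.46 ± 0.11 and 0.49 ± 0.11 (adjusted p = 0.0217 and 0.0185), and Rrbp1, a ribosome-binding protein of ER sheets, rose with S724A by 0.66 ± 0.14 (adjusted p = 0.0124). Ktn1, a sheet protein, fell by 0.70 ± 0.15 on the log2 scale with wild-type IRE1a (adjusted p = 0.0118), and Rtn4, the abundant tubule reticulon, fell by 0.48 ± 0.12 (adjusted p = 0.0328). With S724A, Ktn1 differed by -0.40 ± 0.15 (adjusted p = 0.138) and Rtn4 by -0.36 ± 0.12 (adjusted p = 0.107 and, with the replicate block, 0.0249). The Rtn4 call with wild-type IRE1a was lost without any 1 of the 6 arrays compared, at adjusted p values of 0.0579 to 0.113. The 3 S724A rises were all lost without S724A replicate 2, which left 0, 1 passed without EGFP replicate 3, and 5 passed without EGFP replicate 1. The Stx18 rise with wild-type IRE1a was lost without EGFP replicate 2 (0.108) or wild-type replicate 2 (0.0723) or 3 (0.072).

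Of 21 other genes of ER-phagy, 19 were tested (Pgrmc1 stands in both lists), of which 9 rose and 1 fell with wild-type IRE1a and 8 rose and 1 fell with S724A, with medians of 0.36 and 0.34. Cdk5rap3, which pairs with the UFM1 ligase and acts as an ER-phagy receptor at stalled ribosomes, read 8.84, 8.79 and 8.89 with EGFP, 10.21, 10.28 and 10.37 with wild-type IRE1a and 10.22, 10.42 and 10.28 with S724A. It rose 1.45 ± 0.14 and 1.47 ± 0.14 on the log2 scale (adjusted p = 2.06e-05 and 1.69e-05). Ufl1, the UFM1 ligase itself, rose by 1.14 ± 0.16 and 1.19 ± 0.16 (adjusted p = 0.000504 and 0.000391).

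Further genes of UFM1 attachment, named after their values were seen, were Ufm1, the modifier, with rises of 0.85 ± 0.13 and 0.79 ± 0.13, and Ufc1, its conjugating enzyme, with rises of 0.70 ± 0.12 and 0.68 ± 0.12. Their adjusted p values were 0.00118 and 0.00227 for Ufm1 and 0.00207 and 0.00272 for Ufc1. Of the dimmer Ufm1 probe sets, 1449263_at rose by 0.95 and 1.02 (adjusted p = 0.0164 and 0.0131). The others did not pass, 1418900_at at 0.27 and 0.28 (adjusted p = 0.366 and 0.303) and 1439028_at at 0.11 and 0.08 (0.678 and 0.73). Ddrgk1, the ER anchor of the ligase, differed by -0.21 ± 0.09 (adjusted p = 0.238) and 0.03 ± 0.09 (adjusted p = 0.895). P4hb, a disulfide isomerase of the ER lumen listed as a cargo marker and not as a receptor, rose by 1.08 ± 0.12 and 1.32 ± 0.12 (adjusted p = 9.04e-05 and 1.43e-05).

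Tex264, a single-pass ER-phagy receptor, was the 1 gene of this list that fell. It read 9.87, 9.44 and 9.76 with EGFP, 8.76, 8.44 and 8.76 with wild-type IRE1a and 8.67, 8.43 and 8.49 with S724A. Every wild-type and S724A array was below every EGFP array, and Tex264 fell by 1.04 ± 0.13 (adjusted p = 0.000217) and 1.16 ± 0.13 on the log2 scale (adjusted p = 8.06e-05). With the control hairpin it read 9.52, 9.49 and 9.53 and with the IRE1a hairpin 9.75, 9.51 and 9.66. These overlap the EGFP range and differed from each other by 0.12 ± 0.13 (adjusted p = 0.831).

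**Figure D4:**
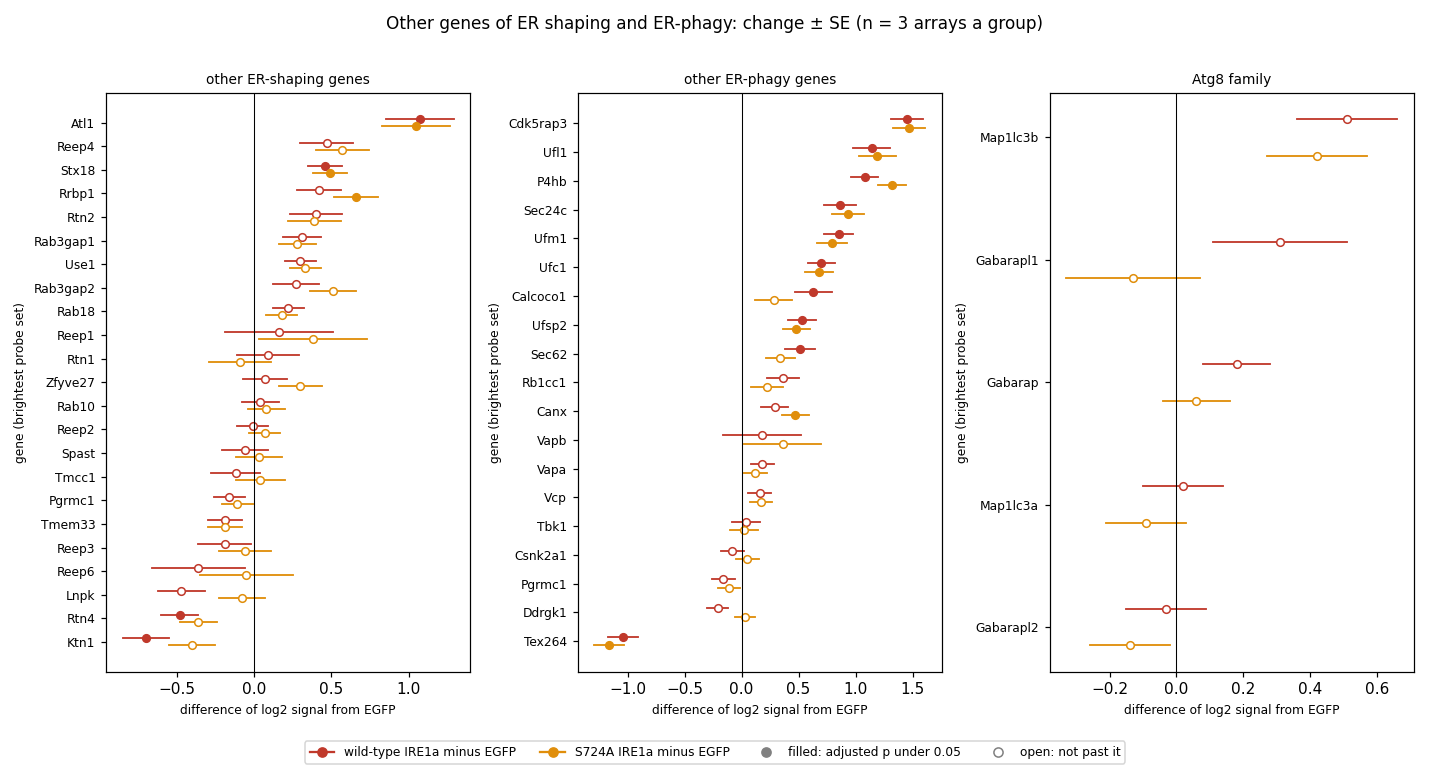
Log2 difference from EGFP (x axis, point ± SE, n = 3 arrays a group) of the brightest probe set of each listed gene (y axis) with wild-type IRE1a (red) and S724A (orange), in the lists of other ER-shaping genes, other ER-phagy genes and the Atg8 family. Filled points passed an adjusted p of 0.05, and Cdk5rap3 and Tex264 stand at the ends of the ER-phagy list.

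Of the 5 genes of the Atg8 family, the LC3 and GABARAP proteins that receptors bind, 0 rose and 0 fell by their brightest probe set with either protein. Map1lc3b 1415930_a_at differed by 0.51 ± 0.15 with wild-type IRE1a (adjusted p = 0.0689, or 0.0428 within the 48-hour arm alone and 0.046 with trended and robust variances) and 0.42 ± 0.15 with S724A (adjusted p = 0.135 and, with the replicate block, 0.0224). Its probe set 1415928_a_at rose with both, by 0.65 ± 0.14 and 0.54 ± 0.14 (adjusted p = 0.012 and 0.0423), and 1415929_at rose by 0.78 ± 0.16 with wild-type IRE1a (adjusted p = 0.00929) and differed by 0.52 ± 0.16 with S724A (0.0787). On the same arrays all 10 genes of a list of ER folding, translocation and exit rose with both proteins, with medians of 1.25 and 1.38. Among them Manf, a secreted ER-stress protein, rose by 2.30 ± 0.11 and 2.48 ± 0.11 (adjusted p = 5.36e-08 and 1.95e-08), and Sec61b, a translocon subunit, by 2.15 ± 0.12 and 2.03 ± 0.12 (adjusted p = 2.53e-07 and 3.71e-07). None of the genes in these 4 lists passed between wild-type and S724A IRE1a or between the hairpins. The dimmer Rab10 probe sets 1453095_at and 1429296_at, named after their values were seen, were lower in every IRE1a hairpin array than in every control hairpin array. How many of all probe sets were likewise separated was not counted. They differed by -1.23 ± 0.25 and -1.67 ± 0.35 (limma adjusted p = 0.0745 and 0.0906). The brightest Rab10 probe set differed by -0.15 ± 0.12 (adjusted p = 0.765).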

How the data were processed

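Per the labels, RNA was biotin-labelled and hybridised to 1-colour arrays. The authors deposited log2 expression values normalised with GCRMA, per the submitters' processing notes. No source used here names the version. GCRMA corrects background by probe base content and levels arrays jointly, which compresses low values, so changes of dim probe sets may be understated. The table held 45101 probe sets, of which 64 were controls, 34945 named 1 gene, 932 several and 9160 none in GEO's platform annotation; symbols were checked through 34741 gene numbers in a GRCm38.p6 table. Array medians were 5.69 to 5.83. Scanner files and scan dates were not used here.

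Probe sets naming 1 gene with a value of 4 or more in at least 3 of 15 arrays were fitted as 5 group means on 15 arrays (10 residual degrees of freedom) with limma 3.58.1 in R 4.3.3, with lmFit and eBayes and two-sided moderated tests. P-values were Benjamini-Hochberg adjusted over 30046 probe sets within a comparison, with a threshold of 0.05. Changes of a gene's other probe sets were compared with its brightest the same way over 13752 pairs. The number of arrays limits precision: the median 95% interval was ± 0.31. The labels call the experiments independent but do not tie cultures to animals, so p-values measure the spread between these arrays.

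The paired check used residuals of same-numbered arrays within an arm. Of 12 such pairs 11 correlated above 0.1 (0.099 to 0.653), the exception being EGFP 2 with wild-type 2; differently numbered arrays gave -0.402 to 0.008. A comparison counted as paired where every such pair exceeded 0.1. Wild-type against EGFP missed by that 1 pair and did not count, and its blocked values stand in the closing section. The main values of every comparison, including those that counted as paired, come from the unpaired fit. The replicate block is given beside them as an alternative and called more probe sets.

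Members and lists were chosen with earlier results of these data known, so their p-values are not independent support. Every member probe set is named; of each list, up to 4 genes a comparison by smallest p, and others as stated. Alternatives were other scaling, filters, a floor, variances, probe set summaries, the replicate block and leaving out each array. Promoter sequences are from RefSeq.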

Additional observations from a re-analysis of the deposited data

How the results depend on the processing

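No member call changed direction under any setting. The count of member probe sets other than Retreg3 that rose with wild-type IRE1a (2 as reported) was 1 after quantile normalisation, 1 within the 48-hour arm alone, 1 by the brightest probe set of each gene, and 4 with the replicate block. Those that fell (3) were 5 with the replicate block; these are Atl3 1424498_at (adjusted p = 0.0246) and 1424499_s_at (0.0191), while Retreg1 1424683_at (0.0404) and Ckap4 1455019_x_at (0.0411) joined the rises. With S724A the rises (2) were 1 after quantile normalisation, 1 by brightest probe set, 1 by the mean of a gene's probe sets and 3 with the replicate block, and the falls (2) were 1 by brightest probe set, 1 by the mean and 4 with the replicate block. Leaving out 1 array gave 1 to 2 rises and 2 to 4 falls with wild-type IRE1a and 1 to 2 rises and 2 falls in each case with S724A. Counting 1 value per gene lowers counts by construction; the other causes were not tested. Over all probe sets the replicate block called 2332 risen and 1150 fallen with wild-type IRE1a and 2000 and 1128 with S724A, against 1134 and 623, and 941 and 525, without it. Leaving out EGFP replicate 2 or wild-type replicate 3 gave 563 or 667 rises with wild-type IRE1a, and leaving out EGFP replicate 3 gave 730 rises and 414 falls. With S724A, rises and falls were 460 and 274 without EGFP replicate 2, 596 and 339 without EGFP replicate 3, 529 and 251 without S724A replicate 2 and 586 and 265 without S724A replicate 3. Map1lc3b 1415930_a_at rose with wild-type IRE1a under the replicate block (0.00684). Within the arm, the hairpin comparison gave 0 risen and 4 fallen, against 9 and 42. The Retreg3 probe set 1447884_x_at differed by -0.09 with S724A when values under 4 were set to 4. The list counts were rerun under settings chosen after seeing the data. Rises on the ER-phagy list were 6 to 9 with wild-type IRE1a and 6 to 7 with S724A when 1 array was left out, and its 1 fall, Tex264, held in each of these. Array number and signals near background, as for Retreg3 1447884_x_at, limit what small differences can show.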
